A study of Mus musculus with 4 samples.

Results

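The alpha granules of platelets carry growth factors and regulators of blood vessel growth, and 8 genes that encode such cargo were followed in samples of young and old mice labelled as megakaryocytes, the bone marrow cells that make platelets. The genes were Tgfb1, Thbs1, Vegfa, Pdgfa, Pdgfb, Angpt1, Sparc and Timp3. They were taken by gene name from the deposited table of expression values, and all 8 were found among its 56793 gene rows. The samples are labelled as megakaryocytes isolated by flow cytometry from bone marrow, with 2 libraries from young and 2 from old mice, and the genotype of all of them is written Blc6 in the labels. The labels name no treatment or altered allele in either group, and leave out the ages in weeks or months, the gate of the sort and how many animals gave each library. The p-values below therefore cover no more than how far these libraries differ from each other, and that spread may be technical. The study's title concerns platelet factor 4 and the ageing of blood stem cells.

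Megakaryocytes make these proteins, pack them into granules and pass them to platelets, which release them on activation, and they also secrete some of them directly into the marrow. Growth factors such as transforming growth factor beta 1 and the platelet-derived growth factors act through receptors on stem cells and stromal cells, while vascular endothelial growth factor A and angiopoietin-1 act mainly on endothelium. Thrombospondin-1, SPARC and TIMP-3 bind matrix, growth factors or their receptors and are known for restraining vessel growth in several settings.

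Levels are in TPM, transcript abundances that are corrected for length and share a fixed total per library, so levels of different genes can be set side by side. Each library sums to 1000000 TPM, and the depth is unknown because TPM does not keep it. Immunoglobulin genes took 1.03% and 0.896% of TPM in young libraries and 13.3% and 13.1% in old ones, and within a fixed total a larger share of one class leaves less for every other gene. Of 18 megakaryocyte markers 17 had a mean of at least 1 TPM, but the markers summed to 607 to 1625 TPM in a library, against 122316 to 144369 TPM for 14 neutrophil markers. RNA of other cells is thus present in all 4 libraries, and how much of the value of any of the 8 genes came from megakaryocytes is not known. In such bulk samples, fewer cells of a type and less RNA per cell cannot be told apart.

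**Figure D1:**
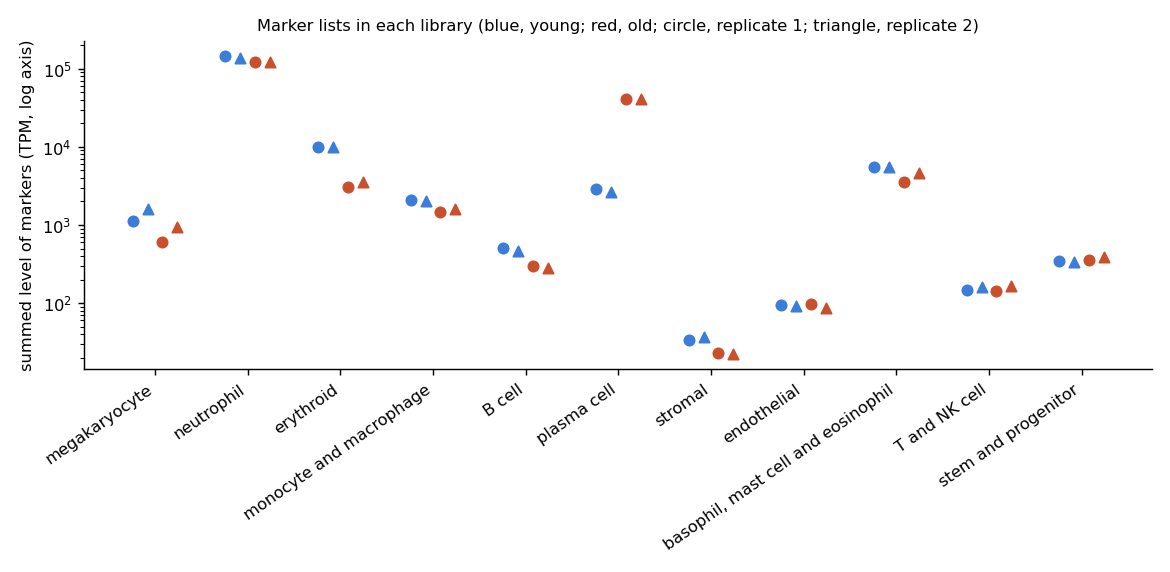
Summed level in TPM, on a log axis, of 11 lists of cell type markers in each library, with colours for the groups and shapes for the replicates. Neutrophil markers sum to 122316 TPM or more in every library, megakaryocyte markers to between 607 and 1625 TPM, and plasma cell markers stand higher in both old libraries.

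In the values as deposited, Thbs1 rose in old samples and Tgfb1 and Timp3 fell. Scaling libraries to megakaryocyte markers took the log2 change of Tgfb1 to 0.37 (SE 0.44) and that of Timp3 from -0.81 to -0.08. The same scaling raised the median change of all tested genes from -0.10 to 0.58, and Tgfb1 and Timp3 both stayed below that median. The mean level of Thbs1 was 1.88 times as high in old as in young samples, that of Tgfb1 0.767 times and that of Timp3 0.552 times. Vegfa was higher in both old libraries but did not pass the threshold, and Angpt1, Sparc, Pdgfa and Pdgfb did not pass it either. Old and young were compared on the scale log2(TPM + 1) with limma, a linear model with variances shared across genes, and a gene was called at a Benjamini-Hochberg adjusted p below 0.05 over all 16073 genes whose mean reached 1 TPM. By this rule 3 of the 8 genes were called, against 19.9% of all genes tested, with 1 higher against 5.2% of all genes and 2 lower against 14.7%. The groups did not overlap for 6 of the 8 genes, 3 of them higher and 3 lower in old, and they did not for 67.9% of all genes tested, 21.8% higher and 46.1% lower. With no filter on low values, or with a prior variance that did not follow the mean, limma called 0 of the 8 genes, with 4 at an unadjusted p below 0.05 in each case. With no filter, 130 of all 33589 genes were called by limma and 7790 were at an unadjusted p below 0.05. A fit without 1 library leaves 1 sample in its group, which has no spread of its own and is assumed to vary like the other group, so calls can be lost there with no smaller change.

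**Figure D2:**
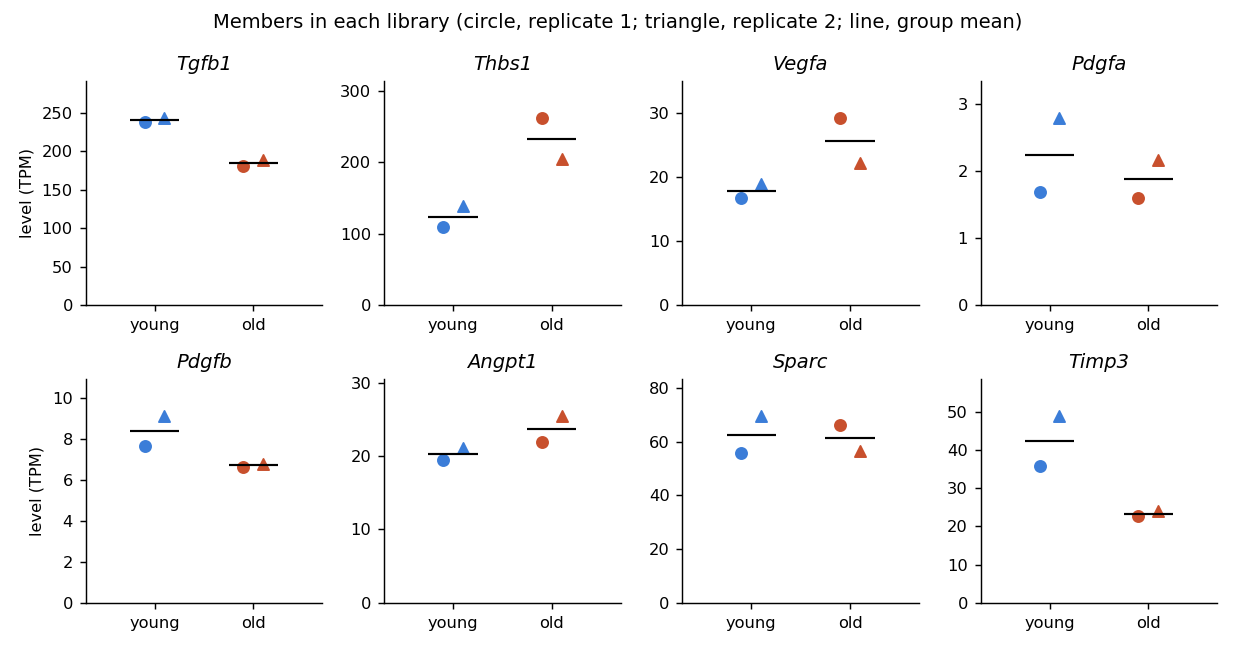
Level in TPM of each of the 8 genes in young and old libraries, with points for single libraries, lines for group means and a separate linear axis from 0 for each gene. Both old libraries lie above both young ones for Thbs1, Vegfa and Angpt1 and below them for Tgfb1, Timp3 and Pdgfb, while the groups overlap for Sparc and Pdgfa.

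The order of the levels differed between the groups. In young samples it ran Tgfb1, Thbs1, Sparc, Timp3, Angpt1, Vegfa, Pdgfb, Pdgfa from high to low, and the ranges of neighbours did not overlap. In old samples Thbs1 stood above Tgfb1, and Timp3 stood below Vegfa and Angpt1, with overlapping ranges of Vegfa and Angpt1 and of Angpt1 and Timp3. Among all gene rows, Thbs1 ranked 1336 and 1027 in young libraries and 451 and 603 in old ones, counted from the most abundant.

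Tgfb1 encodes transforming growth factor beta 1, a latent cytokine that megakaryocytes and other marrow cells release and that holds blood stem cells in quiescence. It was at 239 and 243 TPM in young libraries and at 180.5 and 189 TPM in old ones. Both old libraries were lower, and within each group the libraries lay close together. The log2 change was -0.38 (SE 0.06), and the limma adjusted p was 0.0217. The adjusted p was 0.154 without young replicate 1 and 0.151 without young replicate 2, at changes of -0.39 and -0.37, and it ranged from 0.0172 to 0.498 over 14 alternatives. Relative to the median of all tested genes the change was below 0 in 14 of 14. Several marker lists held lower genes in old libraries. All 13 erythroid markers tested were lower, with a median log2 change of -1.18, as were 11 of 15 markers of monocytes and macrophages and 8 of 10 of B cells. Of 14 neutrophil markers 2 were lower and 1 higher, near the shares of all genes tested, 14.7% lower and 5.2% higher. Their part in the fall of Tgfb1 was not tested.

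The platelet-derived growth factor chains, which pair to form ligands that drive the growth of fibroblasts and smooth muscle cells, were the least abundant of the 8 genes. Pdgfb, the B chain, was at 7.66 and 9.12 TPM in young and 6.64 and 6.80 TPM in old libraries. The old libraries were both lower, with a log2 change of -0.28 (95% interval -0.59 to 0.03, limma adjusted p = 0.160). Pdgfa, the A chain, was at 1.69 and 2.79 TPM in young and 1.6 and 2.16 TPM in old libraries. Its groups overlapped, with a log2 change of -0.16 (95% interval -0.76 to 0.45, limma adjusted p = 0.656). Pdgfb exceeded Pdgfa in every library, by 3.27 to 4.53 times in young and by 4.15 and 3.14 times in old ones.

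Vegfa, the main growth factor for endothelium, was at 16.8 and 18.9 TPM in young libraries and at 29.2 and 22.3 TPM in old ones. Old replicate 1 was the highest, and the groups did not overlap. The log2 change was 0.49 (SE 0.15, 95% interval 0.11 to 0.87), and the limma adjusted p of 0.0734 did not pass. Without old replicate 2 the adjusted p was 0.0433 with a change of 0.68, and without old replicate 1 it was 0.140, for a change of 0.30. Over 14 alternatives the adjusted p ranged from 0.0233, with a crossed pairing of replicates chosen after seeing the data, to 0.269, and the lowest of the other 13 was 0.0408. Angpt1, the ligand that activates the Tie2 receptor and steadies vessels, was at 19.5 and 21.2 TPM in young and 22.0 and 25.4 TPM in old libraries. The old libraries were both higher, by 0.21 on the log2 scale (95% interval -0.05 to 0.47, limma adjusted p = 0.194).

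Thbs1 encodes thrombospondin-1, a granule protein that inhibits vessel growth, binds the receptors CD36 and CD47 and can activate latent transforming growth factor beta. It was at 109 and 139 TPM in young libraries and at 261 and 205 TPM in old ones. The lowest old library was above the highest young one. The log2 change was 0.90 (SE 0.16), and the limma adjusted p was 0.0277. The adjusted p was 0.10 without young replicate 1 and 0.0682 without old replicate 1, with changes of 0.73 in each case, and it ranged from 0.00584 to 0.10 over 13 alternatives and was 0.00510 with a crossed pairing of replicates chosen after seeing the data. Markers of megakaryocytes and of monocytes and macrophages, cell types known to make Thbs1, moved the other way. Of 17 megakaryocyte markers tested 4 were lower and 0 higher, with a median log2 change of -0.79. Of 15 markers of monocytes and macrophages 11 were lower and 0 higher, with a median of -0.45. Among all genes tested, 14.7% were lower and 5.2% higher, with a median of -0.10, so the megakaryocyte count alone says little. The summed monocyte and macrophage markers were at 2108 and 2000 TPM in young and 1471 and 1585 TPM in old libraries. Plasma cell markers moved the same way as Thbs1, with 9 of 9 higher. Of 10 stem and progenitor markers 4 were higher and 1 lower, with a median log2 change of 0.35. The part of these cell types in the rise of Thbs1 was not tested.

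Sparc, a matrix protein that binds collagen and is stored in platelets, was at 55.7 and 69.5 TPM in young and 66.3 and 56.3 TPM in old libraries. The groups overlapped almost wholly, with a log2 change of -0.03 (95% interval -0.37 to 0.32, limma adjusted p = 0.907). Timp3 encodes a matrix-bound inhibitor of metalloproteinases that also blocks binding of vascular endothelial growth factor to its receptor. Timp3 was at 35.8 and 48.9 TPM in young libraries and at 22.7 and 24 TPM in old ones. Young replicate 2 was the highest, and both old libraries were below both young ones.

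The log2 change of Timp3 was -0.81 (SE 0.15), and the limma adjusted p was 0.0297. The adjusted p was 0.0855 without young replicate 2, 0.0898 without old replicate 1 and 0.0843 without old replicate 2, at changes of -0.59, -0.78 and -0.85. Scaled to megakaryocyte markers the change was -0.08, and over 14 alternatives the adjusted p ranged from 0.0205 to 0.873. The summed megakaryocyte markers ranked the 4 libraries in the same order as Timp3, at 1117 and 1625 TPM in young and 607 and 940 TPM in old ones, and their median log2 change was -0.79. Their part in the fall of Timp3 was not tested. Stromal cells are also known to make Timp3. Their 11 markers summed to 33.6 and 36.9 TPM in young and 22.7 and 22.0 TPM in old libraries. Of 7 stromal markers tested, 2 were called lower, Col1a1 and Col1a2, and 0 higher, where 14.7% of all tested genes were lower. The median log2 change of the stromal markers was only -0.04, so most did not follow the sum. The part of stromal cells was not tested either.

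Promoter sequences of 5 of the 8 genes, Tgfb1, Timp3, Sparc, Vegfa and Pdgfa, were found by symbol in a table from RefSeq on build GRCm38.p6. Those of Tgfb1 and Timp3, which both fell, and of Vegfa, which was higher in both old libraries, are shown as the 250 bases before the gene start, the farthest upstream start for Vegfa. Capitals mark the GC box GGGCGG on either strand, a motif that Sp1 and Kruppel-like factors bind, so that the other strand reads CCGCCC.
Tgfb1, chr7:25686752-25687001, plus strand: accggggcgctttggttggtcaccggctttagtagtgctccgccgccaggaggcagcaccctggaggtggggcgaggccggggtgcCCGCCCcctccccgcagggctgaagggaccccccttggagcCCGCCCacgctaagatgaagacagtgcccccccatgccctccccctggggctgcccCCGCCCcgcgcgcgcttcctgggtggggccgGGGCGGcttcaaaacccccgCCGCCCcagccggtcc
Timp3, chr10:86300162-86300411, plus strand: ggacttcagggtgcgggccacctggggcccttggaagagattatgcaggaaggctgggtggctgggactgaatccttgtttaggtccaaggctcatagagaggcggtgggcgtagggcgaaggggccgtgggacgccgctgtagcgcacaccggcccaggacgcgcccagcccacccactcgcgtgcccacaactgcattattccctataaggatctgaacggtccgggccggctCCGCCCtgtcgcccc
Vegfa, chr17:46032378-46032627, minus strand: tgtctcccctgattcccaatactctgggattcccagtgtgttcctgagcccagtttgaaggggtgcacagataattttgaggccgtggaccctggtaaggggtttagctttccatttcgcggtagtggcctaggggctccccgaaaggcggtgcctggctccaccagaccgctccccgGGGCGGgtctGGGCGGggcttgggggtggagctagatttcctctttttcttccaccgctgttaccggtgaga
The window shown for Tgfb1 held 5 GC boxes, that for Vegfa 2 and that for Timp3 1. Of the windows not shown, that of Sparc held 0, those of Pdgfa 1 and 2 and the other one of Vegfa 1, while 32.7% of 32851 such windows of all genes held at least 1. The windows shown were 75.2% G and C for Tgfb1, 59.2% for Vegfa and 65.6% for Timp3, against a median of 52.4% over all windows. The letters AGATAA, the core that GATA factors bind, were searched on both strands and stood once in the window of Vegfa and in 9.99% of all windows. A match of letters is a description and no evidence of binding.

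Ratios within a library do not depend on how libraries are scaled. Thbs1 stood at 0.456 and 0.572 of the level of Tgfb1 in young libraries and at 1.45 and 1.08 of it in old ones. Against Timp3, Thbs1 stood 3.05 and 2.85 times as high in young libraries and 11.5 and 8.54 times as high in old ones. In neither ratio did the groups overlap. The ratio of Vegfa to Thbs1 was 0.154 and 0.136 in young and 0.112 and 0.109 in old libraries, so that of these genes, both higher in old libraries, Thbs1 differed more. With 2 libraries against 2, an exact permutation test of a single value cannot go below p = 0.333.

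Against Pf4, the gene of platelet factor 4, which is stored in the same granules, Thbs1 stood at 0.146 and 0.167 of its level in young and 0.603 and 0.342 in old libraries. Vegfa was at 0.0225 and 0.0227 of the level of Pf4 in young and 0.0674 and 0.0372 in old libraries. Angpt1 was at 0.0261 and 0.0254 in young and 0.0507 and 0.0426 in old libraries. For these genes the ratio to Pf4 was highest in old replicate 1, where Pf4 itself was lowest, at 433 TPM. Timp3 was at 0.0479 and 0.0587 of Pf4 in young and 0.0525 and 0.0401 in old libraries, and Tgfb1 at 0.320 and 0.292 in young and 0.417 and 0.316 in old ones. In those last 2 ratios the groups overlapped, while the ratios of Sparc, Pdgfa and Pdgfb to Pf4 were higher in both old libraries than in both young ones. Pf4 itself was at 746 and 832 TPM in young and 433 and 598 TPM in old libraries (limma adjusted p = 0.0545). The authors' deposited table lists Pf4 as lower in old. Sparc, Pdgfa and Pdgfb had log2 changes of -0.03, -0.16 and -0.28, so their ratios were higher with no rise of these genes themselves.

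The scaling between libraries moved the changes of all 8 genes together. In the scaling to megakaryocyte markers, each library was divided by the geometric mean of all 18 markers, Gp1bb with a mean below 1 TPM among them. The median over all tested genes lay at -0.10 on the log2 scale in the deposited values and at -0.05 with median-ratio scaling. It lay at 0.07 with immunoglobulin genes removed and at 0.58 when scaled to megakaryocyte markers. Relative to that median, Thbs1 was at 1.0 as deposited and at 1.01, 1.02 and 1.07 under the other scalings. Timp3 was at -0.71 as deposited and at -0.71, -0.70 and -0.66, and Tgfb1 was at -0.28 and then at -0.27, -0.26 and -0.21. The relative change of Vegfa was 0.59 as deposited and 0.60, 0.61 and 0.63 under the others.

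The calls shifted with the scaling. Tgfb1 was not called with median-ratio scaling (adjusted p = 0.0751) or with immunoglobulin genes removed (adjusted p = 0.0836), and scaled to megakaryocyte markers its change turned to 0.37 (adjusted p = 0.498). Vegfa was called with median-ratio scaling (adjusted p = 0.0458) and with immunoglobulin genes removed (adjusted p = 0.0408). With median-ratio scaling 2 of the 8 genes were higher and 1 lower, against 11.5% of all genes called, 5.93% higher and 5.6% lower. The counts were the same with immunoglobulin genes removed, against 11.2% of all genes called, 8.02% higher and 3.15% lower. Scaled to megakaryocyte markers 1 was higher and 0 lower, against 7.65% of all genes called, 7.55% higher and 0.098% lower. Thbs1 was called under each of the 3 scalings, with adjusted p of 0.0262, 0.0176 and 0.00584. Its changes there were 0.96 (SE 0.13), 1.09 (SE 0.16) and 1.65 (SE 0.45). The smallest adjusted p thus came with the largest SE, and is no sign of a firmer change. Timp3 was called under the first 2, with adjusted p of 0.0425 and 0.0498, but had a change of -0.08 when scaled to megakaryocyte markers (adjusted p = 0.873).

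**Figure D3:**
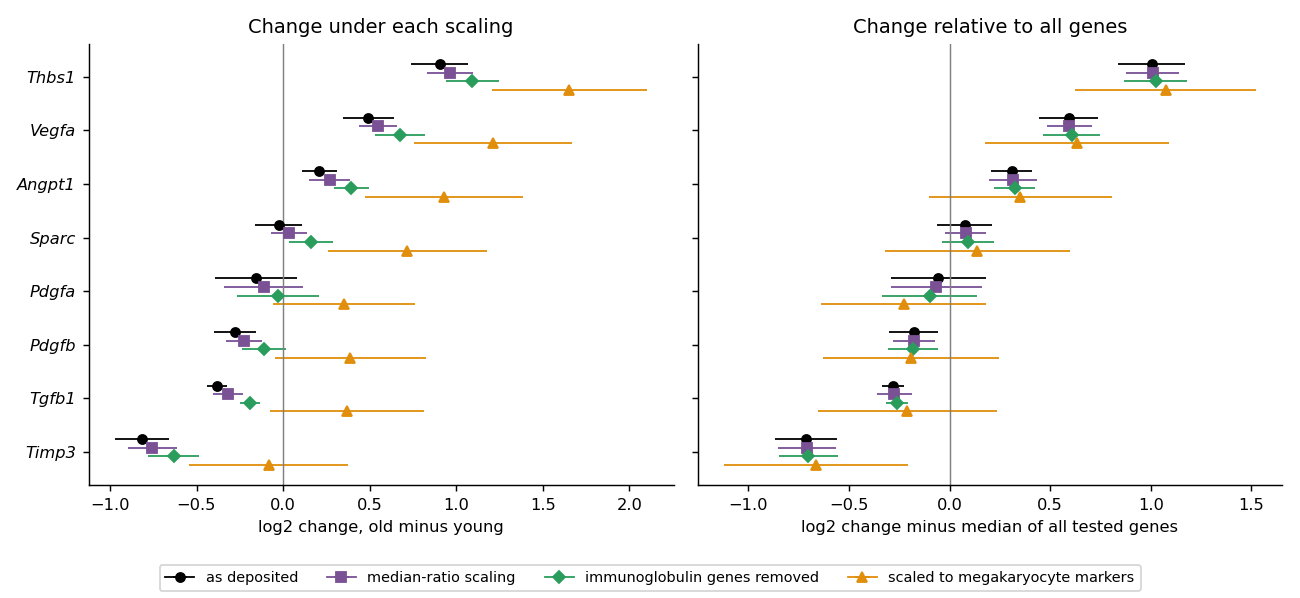
Log2 change of each gene, old minus young, under 4 scalings of the libraries (left) and the same after subtracting the median change of all tested genes under that scaling (right); points are limma estimates and bars 1 SE. On the left the points of a gene spread out, as for Tgfb1 from -0.38 to 0.37, while on the right they come together, with Thbs1 between 1.0 and 1.07 and Timp3 between -0.71 and -0.66.

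The authors' deposited table of changed genes lists Thbs1, Vegfa and Timp3, and not the other 5 genes. That table holds 1255 genes, or 2.21% of all gene rows, with 0.928% listed as higher in old and 1.28% as lower. Of those 56793 rows only 16073 reached a mean of 1 TPM, as all 8 genes did. The share over all rows is therefore no like comparison for the 8. In the authors' deposited table the log2 fold change was 0.83 (SE 0.18, adjusted p = 1.14e-07) for Thbs1. For Vegfa the authors' deposited table gives 0.35 (SE 0.15, adjusted p = 0.0271), and for Timp3 it gives -0.68 (SE 0.17, adjusted p = 5.09e-06). These values come from the same libraries by column name, so they are no second measurement. The adjusted p of Thbs1 and of Timp3 in the authors' deposited table are smaller than the listed change and SE would give in a normal test, and the files do not say how they were made. In the authors' deposited table of enriched terms for genes lower in old, Timp3 was among 16 genes of the term platelet degranulation, with a log10 q-value of -4.04.

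Other genes of the same pathways were taken from 11 lists. Of 132 genes on the lists 103 were tested, and 8 rose and 15 fell, where 5.2% of all tested genes rose and 14.7% fell, with a median log2 change of -0.06 against -0.10 for all tested genes. With median-ratio scaling the same 8 rose and 5 of the 15 fell, and with immunoglobulin genes removed 12 rose, the same 8 among them, and 2 of the 15 fell. When scaled to megakaryocyte markers 6 rose, 4 of the same 8 among them, 0 fell, and 11 of the 15 that had fallen had a change above 0. The others that rose under that scaling were Epas1 and Ltbp4. As deposited they were at 6.07 and 3.29 TPM in old replicate 1 but at 1.77 and 0.285 TPM in old replicate 2. Fits without 1 library leave a single sample in a group, so their counts of calls are not compared here.

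Around Tgfb1, of 7 ligands and latency proteins tested, 1 rose and 1 fell, where 5.2% of all tested genes rose and 14.7% fell. Lrrc32, the surface protein GARP that holds latent transforming growth factor beta on platelets, fell from 5.92 and 9.91 TPM in young to 3.09 and 3.70 TPM in old libraries (limma adjusted p = 0.0494). Lrrc32 was not called with median-ratio scaling (adjusted p = 0.0631), with immunoglobulin genes removed (adjusted p = 0.0737) or scaled to megakaryocyte markers (adjusted p = 0.501, change -0.36), and over 14 alternatives the adjusted p ranged from 0.0392 to 0.501. The megakaryocyte markers were lower in old libraries as well, with a median log2 change of -0.79, and their part was not tested. Ltbp3, a matrix protein that binds the latent cytokine, rose from 2.52 and 3.12 to 4.82 and 5.02 TPM (limma adjusted p = 0.0423). Of 12 receptors and SMAD pathway genes 0 passed by limma, with 4 at an unadjusted p below 0.05. Of all 16073 genes tested 6317 were at such an unadjusted p, so these 4 do not stand out. The receptors Tgfbr1 and Tgfbr2 had limma adjusted p of 0.711 and 0.234. The most abundant of this list were Smad4, the shared SMAD partner, at 43.5 and 45.5 TPM in young and 39.4 and 35.5 TPM in old libraries (limma adjusted p = 0.0859), and Ski, a repressor of SMAD signalling, at 31.0 and 33.0 TPM in young and 29.7 and 26.5 TPM in old ones (limma adjusted p = 0.187).

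Of 14 tested genes that transforming growth factor beta is known to regulate, 2 rose and 3 fell, with a median log2 change of 0.09. Among all tested genes 5.2% rose and 14.7% fell. Id1, an inhibitor of basic helix-loop-helix factors, fell from 31.2 and 33.1 to 19.4 and 17.9 TPM, and its relative Id2 fell from 64.3 and 61.1 to 44.2 and 46.5 TPM. Junb, an AP-1 subunit that is also an immediate early gene, rose from 379.6 and 331 to 595 and 609.8 TPM. The limma adjusted p was 0.0130 for Id1 and Junb and 0.0208 for Id2. The other calls, named after their values were seen, were Bhlhe40, a transcriptional repressor that rose by 0.47, and Klf10, a Kruppel-like factor that fell by 0.43 on the log2 scale. Id1 was called under the other scalings except that to megakaryocyte markers, under which Id2 and Klf10 had changes of 0.28 and 0.30.

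Around Vegfa, 1 of 6 family members and receptors tested was called. Nrp2, a co-receptor for vascular endothelial growth factors, rose from 5.77 and 5.05 to 9.58 and 8.24 TPM (limma adjusted p = 0.0347), while Kdr, the main signalling receptor on endothelium, was at 3.24 and 3.43 TPM in young and 2.81 and 2.91 TPM in old libraries (limma adjusted p = 0.410). Of 16 genes of the hypoxia pathway that is known to drive Vegfa, 1 rose and 4 fell. Among all tested genes 5.2% rose and 14.7% fell. The glucose transporter gene Slc2a1 rose from 21.6 and 22.3 to 31.2 and 29.8 TPM, while Ldha, lactate dehydrogenase A, fell from 621 and 614 to 461 and 503 TPM. Ndrg1, a stress-induced gene, fell from 62.3 and 64.1 to 51.8 and 52.0 TPM. The limma adjusted p was 0.0233 for Slc2a1, 0.0287 for Ldha and 0.0365 for Ndrg1, and Vhl and Pgk1, named after their values were seen, fell by 0.31 and 0.23 on the log2 scale. None of these 4 that fell was called with immunoglobulin genes removed, and all 4 had changes above 0 when scaled to megakaryocyte markers.

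Around Angpt1, Tie1, an orphan receptor that works with Tie2, rose from 10.4 and 10.1 to 14.4 and 14.3 TPM (limma adjusted p = 0.0299) and was the only call among 5 genes tested. Tie1 was also the only call among 9 endothelial markers tested, where 5.2% of all tested genes rose. All 11 endothelial markers, tested or not, summed to 93.4 and 91.6 TPM in young and 96.9 and 85.7 TPM in old libraries. The largest part of that sum was Pecam1, at 47.6 and 46.5 TPM in young and 43.8 and 40.0 TPM in old libraries. Tek, which encodes Tie2 itself, was at 2.12 and 1.89 TPM in young and 3.60 and 2.93 TPM in old libraries (limma adjusted p = 0.0854). Of the genes around the platelet-derived growth factors, 3 of 5 had a mean below 1 TPM. The others were Pdgfrb, a receptor (limma adjusted p = 0.393), and the ligand Pdgfc (limma adjusted p = 0.150).

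Around Thbs1, its receptor gene Cd47 fell from 166 and 174 to 134 and 125 TPM (limma adjusted p = 0.0246) and was the only call among 6 genes tested, with a change of 0.36 when scaled to megakaryocyte markers. Among 7 tested relatives of Sparc and other matricellular genes, Stab1, a scavenger receptor known to take up SPARC, rose from 3.28 and 3.05 to 9.52 and 6.63 TPM (limma adjusted p = 0.0250). Among 13 tissue inhibitors and metalloproteinases tested, 1 rose and 3 fell, where 5.2% of all tested genes rose and 14.7% fell. Mmp14, a membrane-bound matrix metalloproteinase, rose from 8.39 and 8.60 to 13.5 and 12.4 TPM (limma adjusted p = 0.0260). Bsg, the metalloproteinase inducer basigin, fell from 349 and 354 to 239 and 263 TPM (limma adjusted p = 0.0200), and Mmp19 fell from 10.9 and 10.5 to 6.29 and 7.28 TPM (limma adjusted p = 0.0297). Adam10, a sheddase named after its values were seen, fell by 0.31 on the log2 scale. When scaled to megakaryocyte markers, Bsg, Mmp19 and Adam10 had changes of 0.27, 0.08 and 0.44.

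Among 15 other growth factors and regulators of vessel growth tested, 3 fell and 0 rose by limma, with 8 at an unadjusted p below 0.05. Of all 16073 genes tested 14.7% fell and 5.2% rose by limma, and 6317 reached the same unadjusted level. Igfbp3, a binding protein of insulin-like growth factors, fell from 5.0 and 5.79 to 2.93 and 2.71 TPM. Sphk1, the kinase that makes sphingosine-1-phosphate, fell from 12.4 and 13.7 to 8.57 and 6.69 TPM. Hpse, heparanase, fell from 58.6 and 57.7 to 44.6 and 46.0 TPM. The limma adjusted p was 0.0287, 0.0323 and 0.0253, and with immunoglobulin genes removed none of the 3 was called. When scaled to megakaryocyte markers, Hpse had a change of 0.39. The megakaryocyte markers, lower in old libraries, moved with these genes, and their part was not tested.

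**Figure D4:**
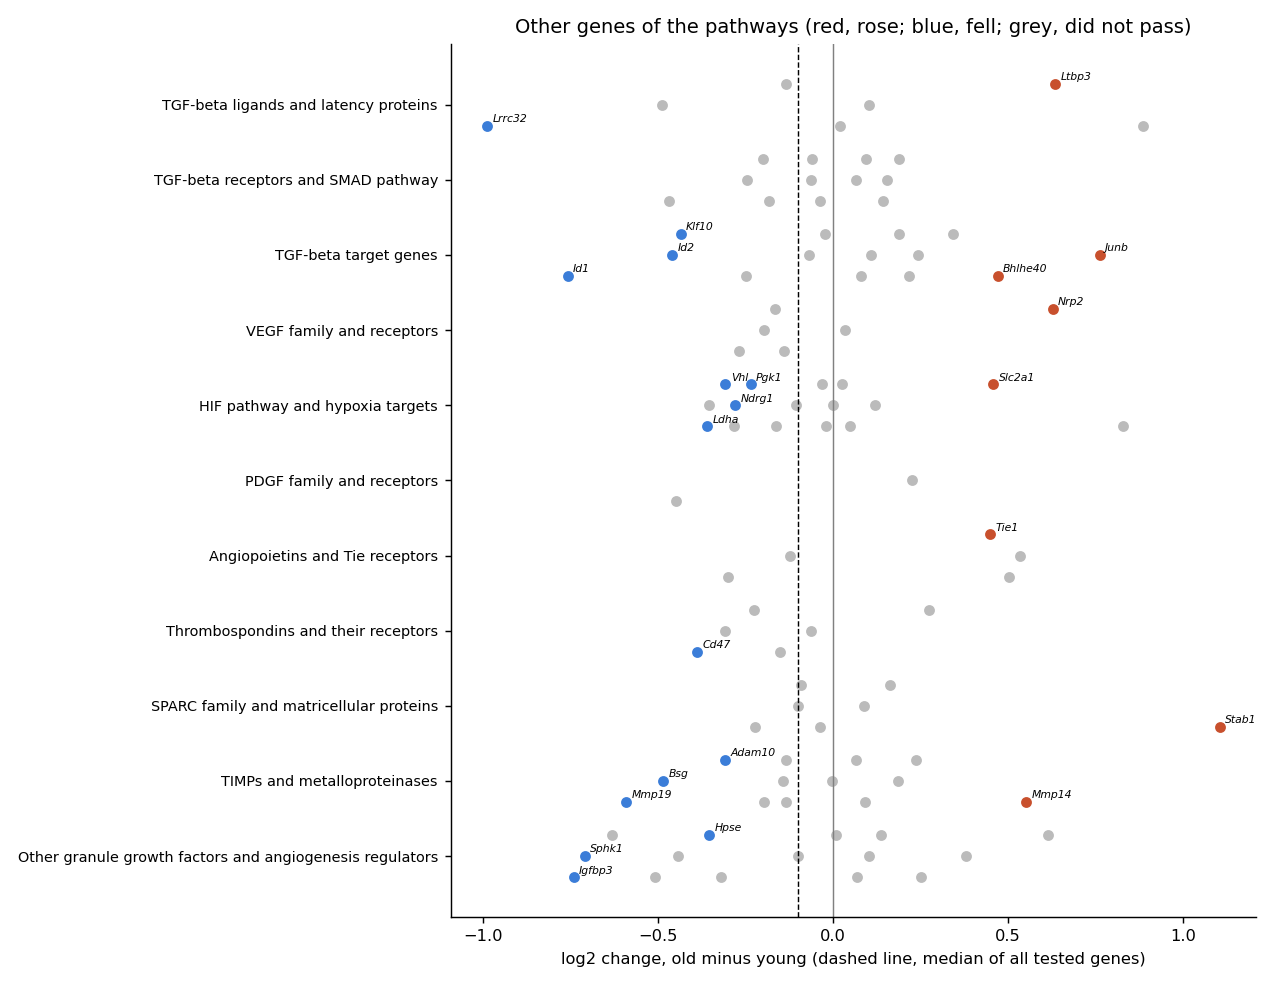
Log2 change, old minus young, of each tested gene of the 11 pathway lists, with rows for lists, named points for genes that passed the limma threshold and a dashed line at the median of all tested genes, -0.10. In the values as deposited, the 8 genes that rose and the 15 that fell are spread over the lists, and the list of receptors and SMAD pathway genes holds no call.

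Likeness of profile was measured as the distance between centred log2(TPM + 1) values over the 4 libraries, among 230 candidate genes of the pathway and marker lists. The nearest genes to Timp3 were Itgb3, Igfbp3 and Lrrc32, at distances of 0.20, 0.23 and 0.25. The nearest to Pdgfa were the megakaryocyte markers Mmrn1, Vwf and Itga2b, at 0.15, 0.18 and 0.19. Tgfb1 lay nearest to Hpse, Ldha and Cd68, at 0.05, 0.06 and 0.06, and Sparc nearest to Thbs2, Ccn2 and Fstl1, at 0.07, 0.07 and 0.08. Vegfa lay nearest to Hgf, Hdc and Tgif1, at 0.14, 0.15 and 0.15, and Thbs1 nearest to Procr, Csf3r and Irf4, at 0.28, 0.30 and 0.35. The nearest to Pdgfb were P4ha1, Angptl4 and Flt3, and to Angpt1 they were Mpo, Nkg7 and Smoc1. With 4 libraries such distances describe these samples only.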

How the data were processed

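The labels describe poly(A) RNA sequencing of young and old megakaryocytes. The deposited table holds TPM values per gene and library. Per the submitters' processing notes, the tools were TopHat, STAR, Trim Galore and DESeq2 and the builds GRCm39 and mm9, with no role for each, so which build lies behind the values is not known here. The authors' deposited table of changed genes holds log2 fold changes, a mean signal and p-values, and their deposited term tables hold log10 p- and q-values. From the TPM values, log2(TPM + 1) of genes whose mean reached 1 TPM was fitted with limma 3.58.1 in R 4.3.3, with a prior variance that follows the mean and Benjamini-Hochberg adjustment over all 16073 genes, and the fit was tested on simulated data. Figures were drawn with matplotlib 3.10.9. TPM share a fixed total, so 1 abundant class of RNA lowers all others. The 8 genes and the lists were chosen with earlier results of these data known. From each pathway list the text names up to 3 called genes with the smallest p, or up to 2 with the highest mean where none was called, and receptors of the 8 genes, and says where a gene was named after its values were seen. Alternatives changed the pseudocount, filter, scaling, variance prior, replicate block and libraries used.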

Additional observations from a re-analysis of the deposited data

How the results depend on the processing

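The 2 replicates per group, the unknown depth and the fixed TPM total limit every count. The counts of the 8 genes, of other pathway genes and of all genes past the limma threshold, which were 3, 23 and 3204, became 0, 0 and 130 with no filter on low values (4, 40 and 7790 at an unadjusted p below 0.05). They were 1, 6 and 1249 when scaled to megakaryocyte markers and 0, 3 and 572 without the variance trend. With median-ratio scaling 13 pathway genes and 1853 of all genes passed, and 14 and 1803 after removing immunoglobulin genes. Leaving out 1 library gave 1 to 3, 0 to 18 and 353 to 2500. The replicate block left 3, 7 and 1252. Replicate differences correlated at -0.15 between groups over 16073 genes. This gives no support for pairing by replicate number, but 1 correlation cannot show whether libraries share a batch. A crossed pairing, chosen after seeing the data, gave 4, 28 and 4649.

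Scaled to megakaryocyte markers, log2 changes turned to 0.37 for Tgfb1, 0.35 for Pdgfa, 0.39 for Pdgfb, 0.72 for Sparc, 0.49 for Smad4, 0.55 for Ski, 0.66 for Tgfbr1, 0.28 for Id2, 0.30 for Klf10, 0.41 for Kdr, 0.39 for Ldha, 0.46 for Ndrg1, 0.42 for Vhl, 0.52 for Pgk1, 0.36 for Cd47, 0.27 for Bsg, 0.083 for Mmp19, 0.44 for Adam10 and 0.39 for Hpse. That scaling raised the median of all genes to 0.58. Sparc turned to 0.035 with median-ratio scaling, while removing immunoglobulin genes took Sparc to 0.16, Ski to 0.0017 and Tgfbr1 to 0.12. Leaving out 1 library gave -0.18 to 0.13 for Sparc, -0.40 to 0.091 for Pdgfa and -0.19 to 0.067 for Tgfbr1. Low genes such as Pdgfa have no value with a minimum mean of 5 TPM. The cause was not tested.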

Other observations

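Some genes of vessels and of the same pathways were much higher in old replicate 1 than in the other libraries, and were picked after their values were seen. Among them, Epas1 and Cldn5 were also above both young libraries in old replicate 2. Rgs5, a pericyte gene, was at 0.128 and 0.132 TPM in young libraries, 13.8 TPM in old replicate 1 and 0.0535 TPM in old replicate 2. Epas1, which encodes a hypoxia-inducible factor subunit, was at 1.5 and 1.48 TPM in young and 6.07 and 1.77 TPM in old libraries. Ltbp4, a latent transforming growth factor beta binding protein, was at 0.291 and 0.250 TPM in young and 3.29 and 0.285 TPM in old libraries. Cldn5, an endothelial junction gene, was at 0.923 and 0.444 TPM in young and 3.51 and 1.13 TPM in old libraries. Ptprb, an endothelial phosphatase gene, was at 0.168 and 0.241 TPM in young and 1.91 and 0.135 TPM in old libraries. Thbs1 and Vegfa were also highest in old replicate 1, and Angpt1 was highest in old replicate 2.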
